A study of Mus musculus with 12 samples.

Results

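The lysosome degrades proteins, lipids and sugars taken up or set aside by the cell, and 43 genes of its machinery were followed here in gonadal white adipose tissue (gWAT) of lean and obese mice. The genes were listed by name. They are 9 cathepsins, 11 other hydrolases, 3 activator and granulin proteins, 4 membrane proteins, 3 transcription factors of the MiT/TFE family and 13 subunits of the proton pump, and all 43 were found among the 19792 gene IDs of the deposited count table. RNA was sequenced from whole gWAT of male mice labelled C57BL/6, with 3 libraries in each of 4 groups. WT mice carried a floxed Gja1 gene, which codes for the gap junction protein connexin 43, and no CreER. KO mice (Cx43-MKO) carried the floxed Gja1 gene together with Csf1r-CreER, a tamoxifen-activated recombinase driven by the promoter of a macrophage growth factor receptor. Mice of each genotype received a normal chow diet (NCD) or a high-fat diet (HFD) for 8 weeks from 6 weeks of age. The study's methods give tamoxifen to WT and KO mice alike, and place the start of experiments after the last dose. The deposited protocol instead places it on 5 days in weeks 1 and 5 of feeding. The sample labels list it for the KO mice alone, so that tamoxifen and genotype cannot be told apart if these labels are complete. Strain background may also differ with genotype, because the name of the CreER line is an FVB one. Whether animals were pooled is not stated, and without it p-values measure the spread between these libraries. Libraries are named by group and by the number in the count table, which is 1, 2 and 4 in WT-HFD.

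Lysosomal hydrolases work at acid pH, which the vacuolar ATPase (V-ATPase) maintains by pumping protons: its V1 sector in the cytosol splits ATP and its V0 sector in the membrane carries the protons. Cathepsins are proteases, as are Lgmn and Tpp1 among the other hydrolases. Further members cut glycans, lipids and sphingolipids, the last with the help of activator proteins made from prosaposin. The MiT/TFE factors TFEB, TFE3 and MITF bind an E-box in the promoters of many of these genes, the CLEAR element. In obese adipose tissue, macrophages gather around dying adipocytes and take up their lipid, and these cells are rich in lysosomes.

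The CLEAR element is shown first, as a description. Because it is known from the promoters of many of these genes, an excess among them is not independent support. The RefSeq promoter windows on GRCm38.p6 cover 37 of the 43 genes. Each is 300 bases long and ends 50 bases past the start site used for that window, which need not be the outer end of the gene. The E-box CACGTG occurred in 12 of these 37 windows (32.4%), against 10.2% of the 14893 windows of genes in the count table. Its extension TCACGTGA, which holds the E-box and like it reads the same on both strands, occurred in 7 windows (18.9%), against 1.73%. The windows of Ctsa, Ctsd, Gla, Mcoln1, Atp6v0d1, Atp6v0e and Atp6v1a held the longer form. By the first base of the match, it lay 99 bases before the start site of the Ctsd window and 46 before that of Mcoln1. In Ctsa it lay 13 bases before the window's start site, which is inside the gene, whose span begins at chr2:164832872. For 6 of these genes, 1 match each is printed 5′ to 3′ on the gene's strand, with the 8 matching bases in capitals. The stretches lie at chr2:164833740-164833787 for Ctsa, chr7:142387899-142387946 for Ctsd, chrX:134601173-134601220 for Gla, chr8:3500453-3500500 for Mcoln1, chr8:105566041-105566088 for Atp6v0d1 and chr16:44139364-44139411 for Atp6v1a.
Ctsa: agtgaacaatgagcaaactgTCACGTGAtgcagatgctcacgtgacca
Ctsd: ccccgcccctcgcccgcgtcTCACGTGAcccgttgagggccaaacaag
Gla: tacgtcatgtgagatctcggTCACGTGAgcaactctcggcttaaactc
Mcoln1: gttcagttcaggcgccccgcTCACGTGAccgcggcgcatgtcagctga
Atp6v0d1: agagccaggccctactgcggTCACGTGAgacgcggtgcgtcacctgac
Atp6v1a: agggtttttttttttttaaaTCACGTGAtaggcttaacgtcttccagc

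Lamp1 held the E-box at 4 places and none of the 8-base form. The stretch printed below for Lamp1, at chr8:13159096-13159141, shows the second of the 4 in capitals. Ctsl and Lgmn each held the E-box once, and their stretches, at chr13:64370731-64370770 and chr12:102439116-102439161, are shown because these genes had some of the smallest p-values for diet.
Lamp1: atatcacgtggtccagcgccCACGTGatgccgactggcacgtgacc
Ctsl: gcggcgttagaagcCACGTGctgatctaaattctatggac
Lgmn: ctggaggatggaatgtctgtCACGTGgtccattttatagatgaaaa
A match is a description of the letters and not evidence of binding. No E-box was found in the windows of the 3 MiT/TFE genes, the 3 activator and granulin genes or the 2 accessory subunits of the pump.

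Several libraries stood apart from their groups before any result is read. Genes of the seminal vesicle, a gland beside this fat depot, took 8.57%, 10.1% and 1.97% of all counts in WT-NCD 1, 2 and 3 and at most 0.00166% elsewhere. Summed liver markers were highest in KO-HFD 2 and KO-NCD 2, at 1576 and 594 CPM, where CPM is the library-scaled count that edgeR gives after TMM. Neutrophil markers summed to 24.4, 184 and 499 CPM in WT-HFD 1, 2 and 4. Total counts ran from 47185990 to 73167755 per library, and Adipoq, which codes for the adipocyte hormone adiponectin, lay between 1330.1 and 3285 CPM in all 12. Gja1 did not separate the genotypes in whole tissue, with a KO-HFD against WT-HFD log2 difference of 0.18 ± 0.33 (SE, edgeR adjusted p = 0.741). It was highest in KO-NCD 2, at 149.8 CPM, and lowest in KO-NCD 1, at 48.9 CPM. The tissue sample holds all cell types, so this does not measure deletion in macrophages.

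The 43 genes together took 1.13, 1.01 and 1.11% of all counts in WT-NCD 1, 2 and 3 and 3.25, 2.28 and 2.7% in WT-HFD 1, 2 and 4. In KO mice they took 1.43, 1.05 and 1.29% in KO-NCD 1, 2 and 3 and 1.33, 1.17 and 1.44% in KO-HFD 1, 2 and 3. The WT-HFD libraries were above all others. KO-HFD was above WT-NCD without overlap, on totals that in WT-NCD include the seminal vesicle counts given above, and KO-NCD overlapped both. After TMM the sums of the 43 in WT-NCD and KO-HFD did overlap, at 11621 to 13346 and 10999 to 13953 CPM. Per kilobase of exon, the scale on which genes can be compared, the highest mean levels in WT-NCD were those of Ctsd at 911, Psap at 676, Lamp1 at 429.7 and Ctsb at 423 CPM per kb. In WT-HFD the order was Psap at 1679, Ctsd at 1565, Ctsb at 1044 and Ctss at 993 CPM per kb, with Lamp1 next at 475. Ctss, which encodes the protease that trims the invariant chain in antigen-presenting cells, thus stood at rank 8 in WT-NCD and rank 4 in WT-HFD. The ratio of Ctss to Ctsb per kb was 0.217 to 0.351 in WT-NCD and 0.897 to 1.01 in WT-HFD. It was 0.32 to 0.874 in KO-NCD and 0.416 to 0.661 in KO-HFD.

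The first comparison asked how HFD changed these genes in WT mice. Most of the degradative enzymes were higher on HFD, Ctss by 2.98 and Neu1 by 0.44 on the log2 scale at the ends of the range. The pump subunits had a lower median difference, at 0.24. A gene was called at an adjusted p under 0.05 in edgeR's quasi-likelihood test, adjusted by the Benjamini-Hochberg method over all 16352 genes tested. Of the 43, 29 were called higher and 2 lower, against a background of 17.6% of all tested genes called higher and 18.4% called lower. The median log2 difference of the 43 was 0.88, and that of all tested genes was -0.00. Cathepsins had a median of 1.55 with 8 of 9 higher, other hydrolases 1.08 with 10 of 11 higher and 1 lower, and the activator and granulin proteins 1.27 with 3 of 3 higher. The membrane proteins had a median of 0.32 with 2 of 4 higher, the MiT/TFE factors 0.23 with 1 of 3, and the 13 pump subunits 0.24 with 5 higher and 1 lower. Atp6v0c, taken here by its own row, was not called, but was called higher when summed with a pseudogene row, as described below. Without WT-NCD 1 and WT-NCD 2, the libraries with most seminal vesicle counts, the median of the 43 was 0.79. That fit rests on a single WT-NCD library assumed to vary like the other groups, so its calls are not compared.

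In KO mice, the same change of diet gave 0 called members in either direction. The background was 0.0245% of tested genes called higher and 0.00612% called lower, 5 genes in all. At an unadjusted p under 0.05, 0 of the 43 were higher and 1 was lower, and the DESeq2 Wald test called 0 members, although it called 316 of all genes. The median log2 difference of the 43 was 0.07. The smallest p was that of Mitf, at a log2 difference of -0.40 ± 0.13 (SE, edgeR adjusted p = 0.374). Ctss had a log2 difference of -0.29 ± 0.42 and Lgmn one of 0.04 ± 0.34 between KO-HFD and KO-NCD. Without WT-HFD 1, a library outside this comparison that shares in the estimate of the spread, 1 member, Atp6v0a1, was called higher.

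On HFD, KO mice were compared with WT mice. Members called lower in KO-HFD numbered 28 and members called higher 0, against 7.72% and 7.99% of all tested genes. The median log2 difference of the 43 was -0.80, beside 0.02 for all tested genes. By class, 7 of 9 cathepsins, 8 of 11 other hydrolases, 3 of 3 activator and granulin proteins, 2 of 4 membrane proteins, 2 of 3 MiT/TFE factors and 6 of 13 pump subunits were lower. Atp6v0c was again counted by its own row. This comparison and the diet comparison in WT mice share the WT-HFD libraries, so their values are set side by side below and are not independent. Without KO-HFD 2, the library richest in liver markers, 15 of the 28 were called, and without WT-HFD 4, 20 were. Calls over all tested genes, in either direction, fell from 2570 to 937 and 984 in these fits. At an unadjusted p under 0.05, 1 member was higher and 35 were lower.

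**Figure D1:**
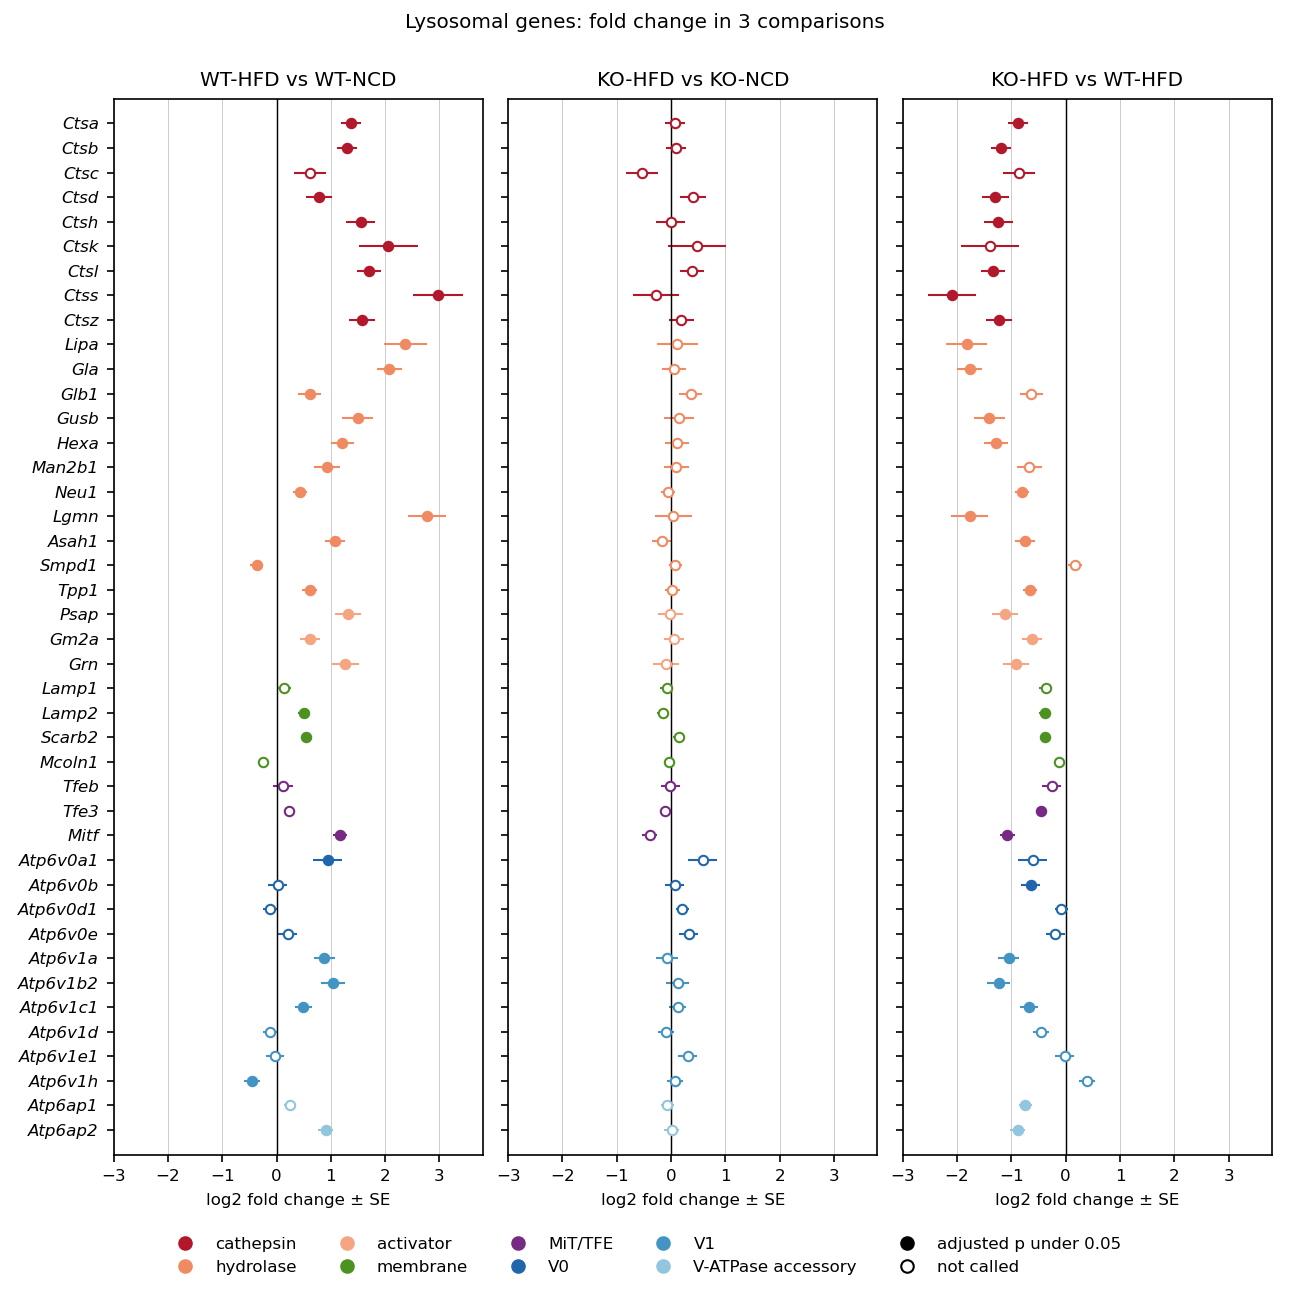
Log2 fold changes (x axis, points, with bars of ± 1 SE) of every member except Atp6v0c, sorted by class, for WT-HFD against WT-NCD, KO-HFD against KO-NCD and KO-HFD against WT-HFD, each from 3 libraries per group. Filled points were called at an edgeR adjusted p under 0.05. In WT mice the cathepsins and other hydrolases reach 2.98 (Ctss) and 2.77 (Lgmn) while the median pump subunit lies at 0.24, and in KO mice no point is filled.

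Among the cathepsins, those with the smallest p-values for diet were Ctsl, Ctsa, Ctsb and Ctsz. Ctsl, a cysteine endopeptidase, was at 448, 345 and 394 CPM (WT-NCD), 1741, 933 and 1184 CPM (WT-HFD), 421, 322 and 426 CPM (KO-NCD) and 519.8, 449 and 555 CPM (KO-HFD). All WT-HFD libraries were above all others, and the log2 difference was 1.70 ± 0.22 for diet in WT (SE, edgeR adjusted p = 0.000331) and -1.34 ± 0.22 for KO-HFD against WT-HFD (edgeR adjusted p = 0.00489). Ctsa, a serine carboxypeptidase that also protects β-galactosidase and neuraminidase from degradation, was at 169, 146 and 145 CPM (WT-NCD), 470.00, 319.6 and 399 CPM (WT-HFD), 246, 168 and 203 CPM (KO-NCD) and 213, 183 and 254 CPM (KO-HFD). Its WT-HFD libraries again did not overlap any other, with 1.37 ± 0.19 for diet (SE, edgeR adjusted p = 0.000408) and -0.87 ± 0.18 for genotype on HFD (edgeR adjusted p = 0.0128). Ctsb, a cysteine protease that can also trim dipeptides from chain ends, was at 2138, 1897 and 1989.9 CPM (WT-NCD), 5953, 4051 and 4848 CPM (WT-HFD), 2277, 1670.2 and 2129.6 CPM (KO-NCD) and 2321, 1798 and 2372 CPM (KO-HFD). Ctsz, a carboxypeptidase, was at 224, 174 and 179 CPM (WT-NCD), 691, 472 and 563 CPM (WT-HFD), 286, 145 and 217 CPM (KO-NCD) and 249.7, 209 and 281 CPM (KO-HFD). In both genes WT-HFD stood above the other 9 libraries, with log2 differences for diet of 1.3 ± 0.19 and 1.58 ± 0.24 (SE, edgeR adjusted p = 0.000597 and 0.000752).

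Ctss and Ctsd were singled out after their values were seen. Ctss, on chromosome 3 from 95526786 to 95556405 (RefSeq, GRCm38.p6), had the largest log2 difference for diet of all 43. Its levels were 199.6, 191 and 124 CPM (WT-NCD), 1606, 1040.5 and 1397 CPM (WT-HFD), 570.1, 153 and 431 CPM (KO-NCD) and 276, 221 and 449 CPM (KO-HFD). WT-HFD was above every other library, KO-NCD 1 and 3 lay above all WT-NCD libraries, and KO-NCD 2 lay within their range. The log2 difference for diet in WT was 2.98 ± 0.46 (SE, edgeR adjusted p = 0.000772), and that for KO-HFD against WT-HFD was -2.09 ± 0.44 (edgeR adjusted p = 0.0127), which became -1.89 with an adjusted p of 0.0563 without KO-HFD 2. Ctsd, the main aspartic protease of the lysosome, was at 2146, 1759.8 and 1905 CPM (WT-NCD), 4759, 2515 and 2712 CPM (WT-HFD), 1044, 964 and 1084 CPM (KO-NCD) and 1400.4, 1069.95 and 1599 CPM (KO-HFD). WT-HFD 1 was far above WT-HFD 2 and 4, and every KO library was below every WT library. The difference for diet in WT was 0.78 ± 0.24 (SE, edgeR adjusted p = 0.0274), and it was 0.43 with an adjusted p of 0.0811 without WT-HFD 1, and also lost its call without WT-NCD 2 or WT-NCD 3.

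The remaining cathepsins differed in how evenly the WT-HFD libraries took part. Ctsh, an aminopeptidase, was 198, 188 and 231 CPM in WT-HFD 1, 2 and 4 against 55.4 to 86.2 CPM in WT-NCD, a log2 difference of 1.55 ± 0.27 (SE, edgeR adjusted p = 0.00168). Ctsk, the collagen-cutting protease known from osteoclasts, was 170.2, 33.6 and 34.7 CPM in WT-HFD 1, 2 and 4 and 15.3 to 22.9 CPM in WT-NCD. WT-HFD 1 held 4.91 times the next library, and the log2 difference of 2.06 ± 0.55 (SE, edgeR adjusted p = 0.0137) was 0.84 without it, still called, and 1.92 without WT-NCD 3, where the adjusted p was 0.0529. Ctsc activates granule proteases of neutrophils and other immune cells and was the cathepsin not called for diet. It was at 343, 322 and 374 CPM with NCD and 293, 535 and 765 CPM with HFD 1, 2 and 4. Its order within WT-HFD was the order of the summed neutrophil markers (24.4, 184 and 499 CPM in WT-HFD 1, 2 and 4), whose part in the result was not tested. The log2 difference was 0.62 ± 0.30 (SE, edgeR adjusted p = 0.131), and without WT-HFD 1 it was 0.91 with an adjusted p of 0.0121.

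**Figure D2:**
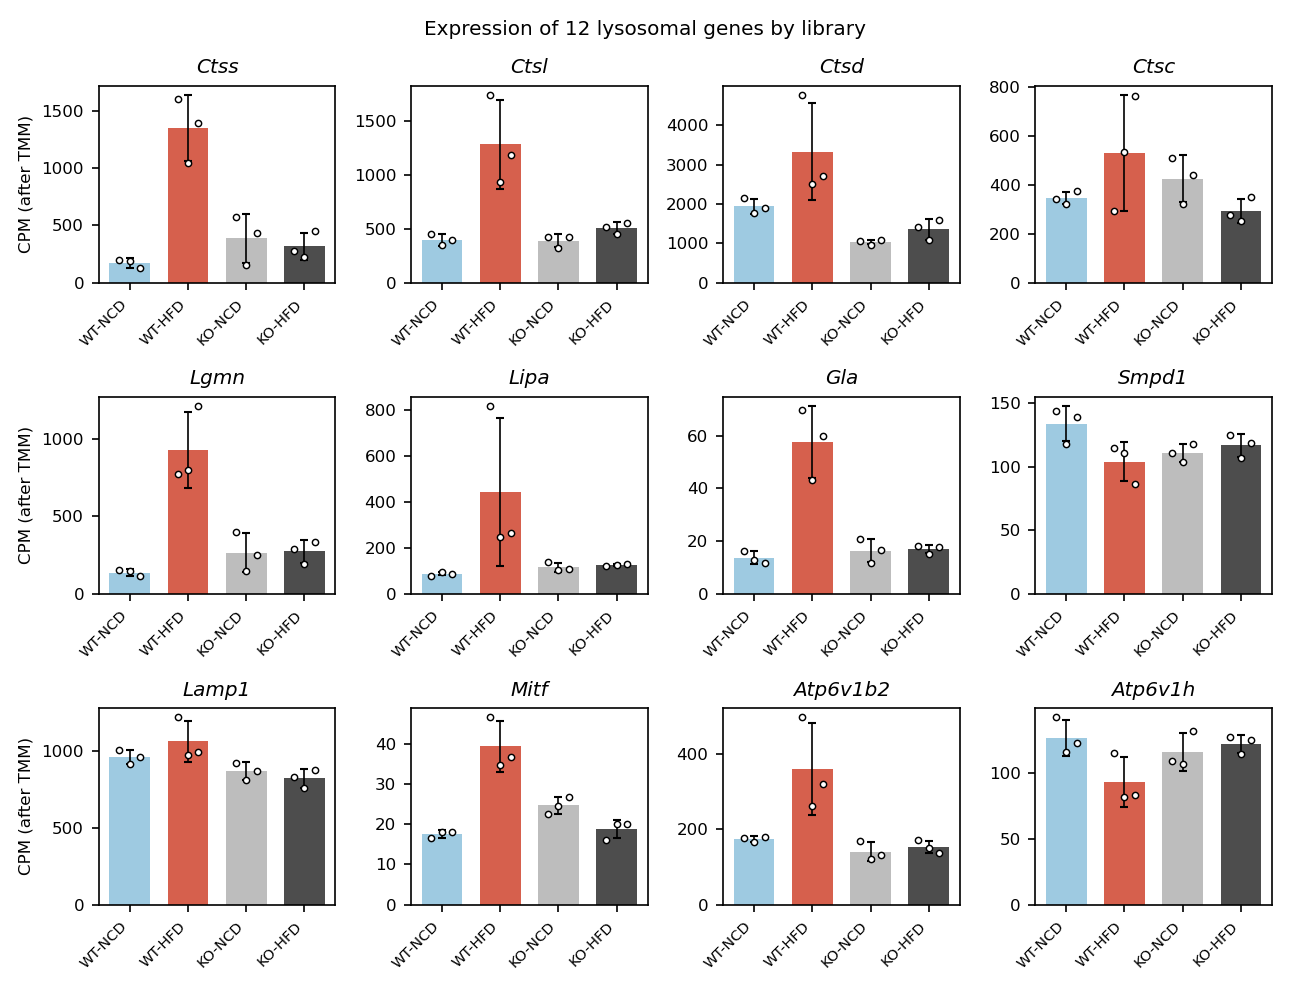
CPM after TMM scaling (y axis, linear from 0) of 12 members in WT-NCD, WT-HFD, KO-NCD and KO-HFD. Bars are means of 3 libraries, error bars are SD and points are libraries. Ctss, Ctsl, Lgmn, Gla and Mitf have all WT-HFD points above every other point, Lamp1 varies little, and Smpd1 and Atp6v1h are lowest in WT-HFD.

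Lgmn, Gla, Lipa and Asah1 had the smallest p-values for diet among the other hydrolases. Gla, the α-galactosidase that is deficient in Fabry disease, was at 16.3, 12.8 and 11.8 CPM (WT-NCD), 69.8, 43.03 and 59.9 CPM (WT-HFD), 20.7, 11.8 and 16.4 CPM (KO-NCD) and 17.9, 15.1 and 17.7 CPM (KO-HFD). WT-HFD stood clear of all others, at 2.08 ± 0.23 for diet (SE, edgeR adjusted p = 0.000154) and -1.77 ± 0.23 for KO-HFD against WT-HFD (edgeR adjusted p = 0.0022). Lgmn, the asparaginyl endopeptidase that processes several cathepsins, was at 150.2, 144 and 112 CPM (WT-NCD), 771, 795 and 1208 CPM (WT-HFD), 396, 147 and 249 CPM (KO-NCD) and 289.98, 191 and 334 CPM (KO-HFD). WT-HFD 4 was 1.52 times the next library of its group, and KO-NCD 1 and 3 but not KO-NCD 2 exceeded WT-NCD. The differences were 2.77 ± 0.36 for diet in WT (SE, edgeR adjusted p = 0.000313) and -1.77 ± 0.35 for genotype on HFD (edgeR adjusted p = 0.00996).

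Lipa is lysosomal acid lipase, the enzyme that splits cholesteryl esters and triglycerides of ingested lipid. Its levels were 78.6, 92.5 and 86.2 CPM (WT-NCD), 818, 248 and 266 CPM (WT-HFD), 138, 102 and 107 CPM (KO-NCD) and 122, 126 and 129 CPM (KO-HFD). WT-HFD 1 held 3.08 times the next library, and WT-HFD 2 and 4 were still above the other 9 libraries. The log2 difference for diet was 2.37 ± 0.39 (SE, edgeR adjusted p = 0.00119) and 1.58 without WT-HFD 1, again called. For KO-HFD against WT-HFD it was -1.82 ± 0.39 (edgeR adjusted p = 0.0128), -1.04 without WT-HFD 1, and it missed the call at an adjusted p of 0.0516 without KO-HFD 2. Set against Lipe, the hormone-sensitive lipase of adipocytes, Lipa was 0.0648 to 0.0901 per kb in WT-NCD and 0.382 to 1.43 in WT-HFD. That ratio was 0.0912 to 0.174 in KO-NCD and 0.124 to 0.135 in KO-HFD.

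Asah1 and Smpd1, which act on ceramide and on its precursor sphingomyelin, were called in opposite directions. Asah1, the acid ceramidase that splits ceramide, was at 111, 117 and 110.5 CPM with NCD and 261, 206 and 247 CPM with HFD 1, 2 and 4. WT-HFD 2 was just below KO-NCD 1, at 210.3, 132 and 134 CPM in KO-NCD 1, 2 and 3, so that these groups overlapped. Its difference for diet in WT was 1.08 ± 0.19 (SE, edgeR adjusted p = 0.00148). Smpd1, the acid sphingomyelinase that produces ceramide, was at 144, 118 and 139 CPM (WT-NCD), 115, 110.5 and 86.3 CPM (WT-HFD), 110.4, 104 and 118 CPM (KO-NCD) and 125, 107 and 119 CPM (KO-HFD). WT-HFD lay below WT-NCD without overlap and overlapped the KO groups. The difference of -0.37 ± 0.13 was called lower for diet (SE, edgeR adjusted p = 0.0436), the sole hydrolase of the 11 in that direction, and lost its call without 9 of the 12 libraries taken in turn, for example at -0.41 with an adjusted p of 0.0623 without WT-HFD 2.

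The other 6 hydrolases were called higher for diet in WT. Gusb, β-glucuronidase, had a log2 difference of 1.5 ± 0.28 and Hexa, a subunit of β-hexosaminidase, one of 1.21 ± 0.22 (SE, edgeR adjusted p = 0.00243 and 0.00189). Man2b1, an α-mannosidase, stood at 0.93 ± 0.23, Tpp1, a tripeptidyl peptidase, at 0.61 ± 0.13, Glb1, β-galactosidase, at 0.61 ± 0.21, and the sialidase Neu1 at 0.44 ± 0.13. Glb1 lost its call in 9 of the 12 fits without 1 library and Neu1 in 3. In Gusb, Man2b1 and Glb1, WT-HFD 1 was 2.12, 1.89 and 1.64 times the next library of its group. KO-HFD against WT-HFD gave -0.80 ± 0.13 for Neu1, -1.28 ± 0.22 for Hexa, -1.40 ± 0.28 for Gusb and -0.66 ± 0.13 for Tpp1, all called lower, while Glb1, Man2b1 and Smpd1 were not called (edgeR adjusted p = 0.0644, 0.0764 and 0.367).

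Psap encodes prosaposin, the precursor of the saposins that present sphingolipids to their hydrolases. It was at 1977, 1782 and 1806 CPM (WT-NCD), 6510.2, 3321 and 3991 CPM (WT-HFD), 2506, 1715 and 2192 CPM (KO-NCD) and 2088, 2003 and 2261 CPM (KO-HFD). WT-HFD was above all other libraries and WT-HFD 1 was 1.63 times the next. The difference for diet was 1.31 ± 0.24 (SE, edgeR adjusted p = 0.00197), and that for KO-HFD against WT-HFD was -1.12 ± 0.24 (edgeR adjusted p = 0.0131), or -1.08 with an adjusted p of 0.0553 without KO-HFD 2. Grn, which encodes progranulin, a partner of prosaposin in the lysosome, was at 451, 398 and 379.6 CPM (WT-NCD), 1049, 879.7 and 1029.9 CPM (WT-HFD), 748, 343 and 585 CPM (KO-NCD) and 523, 430.4 and 615 CPM (KO-HFD). KO-NCD 1 and 3 lay above WT-NCD and below WT-HFD, and KO-NCD 2 lay below both. Its difference for diet in WT was 1.27 ± 0.25 (SE, edgeR adjusted p = 0.00274). Gm2a, the activator of ganglioside cleavage, was the least changed of the class, at 0.61 ± 0.18 (SE, edgeR adjusted p = 0.0238), and its call was lost without WT-NCD 1, WT-NCD 2, WT-HFD 1 or WT-HFD 4, at differences from 0.45 to 0.62.

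The membrane proteins differed from the enzymes in size of change. Lamp1, a major glycoprotein of the lysosomal membrane, was at 1003, 913 and 958 CPM (WT-NCD), 1215, 970.3 and 991 CPM (WT-HFD), 922, 807 and 869 CPM (KO-NCD) and 825, 757 and 877 CPM (KO-HFD). WT-HFD 2 and 4 lay within the range of WT-NCD, and the difference for diet was 0.14 ± 0.12 (SE, edgeR adjusted p = 0.394). In WT mice Lamp2, which also serves chaperone-mediated autophagy, was at 339.9, 331 and 375 CPM on NCD and 516, 488 and 479 CPM on HFD. Scarb2, the receptor that carries glucocerebrosidase to the lysosome, was at 213, 223 and 208 CPM on NCD and 309.9, 324 and 306 CPM on HFD. Neither gene overlapped between the WT diets, with 0.50 ± 0.11 and 0.55 ± 0.10 (SE, edgeR adjusted p = 0.0053 and 0.00209). Mcoln1, a calcium channel of the lysosomal membrane, had a difference of -0.24 ± 0.10 for diet and -0.32 ± 0.10 for KO-NCD against WT-NCD, neither called (edgeR adjusted p = 0.0799 and 0.0578), and its diet difference turned to 0.01 under total-count scaling.

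Of the 3 MiT/TFE factors, Mitf was called for diet in WT mice by edgeR. Mitf, on chromosome 6 from 97807002 to 98021360 (RefSeq, GRCm38.p6), was at 16.5, 18.1 and 18.1 CPM (WT-NCD), 46.7, 34.8 and 36.9 CPM (WT-HFD), 22.7, 24.6 and 26.9 CPM (KO-NCD) and 16.1, 20.1 and 20.1 CPM (KO-HFD). WT-HFD was above all others, every KO-NCD library was above every WT-NCD library, and KO-HFD was below KO-NCD without overlap. The difference was 1.17 ± 0.13 for diet in WT (SE, edgeR adjusted p = 0.000176) and -1.07 ± 0.13 for KO-HFD against WT-HFD (edgeR adjusted p = 0.00182). Tfe3 was at 61.7, 69.3 and 70.3 CPM (WT-NCD), 77.3, 74.8 and 84.2 CPM (WT-HFD), 63.6, 59.3 and 63.2 CPM (KO-NCD) and 62.5, 54.8 and 54.3 CPM (KO-HFD). Its WT diets did not overlap, and it was not called for diet by edgeR, at 0.23 ± 0.09 (SE, edgeR adjusted p = 0.0733), but was by the DESeq2 Wald test (adjusted p = 0.0329) and under total-count scaling (edgeR adjusted p = 0.00445). It was lower in KO-HFD than in WT-HFD, at -0.46 ± 0.09 (edgeR adjusted p = 0.0107). Tfeb was at 32.0, 22.4 and 25.8 CPM with NCD and 34.0, 23.9 and 28.9 CPM with HFD, overlapping, with a difference of 0.11 ± 0.18, which turned to -0.02 without WT-NCD 2 or without WT-HFD 1. These are transcript levels, and MiT/TFE factors are known to be controlled mainly by their place in the cell. Among the 37 genes with a promoter window, 7 of 12 with the E-box and 17 of 25 without it were called higher for diet in WT. The share of all tested genes was 17.6%.

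Of the 13 pump subunits, 5 were called higher and 1 lower for diet in WT mice. Over all tested genes, the shares were 17.6% higher and 18.4% lower, and Atp6v0c was counted by its own row. Of the V1 sector, Atp6v1b2, the B subunit beside the ATP-splitting site, was at 178, 166 and 181 CPM (WT-NCD), 499, 262 and 321 CPM (WT-HFD), 169, 121 and 132 CPM (KO-NCD) and 171, 150.2 and 138 CPM (KO-HFD). Its WT-HFD libraries were above all others, and WT-HFD 1 was 1.55 times the next library of its group. The differences were 1.04 ± 0.22 for diet (SE, edgeR adjusted p = 0.00392) and -1.24 ± 0.22 for KO-HFD against WT-HFD (edgeR adjusted p = 0.00639). Atp6v1a, the catalytic A subunit, was at 125, 143 and 148 CPM with NCD and 358, 187 and 219 CPM with HFD, with 0.88 ± 0.20 for diet (SE, edgeR adjusted p = 0.00596). WT-HFD 1 was 1.64 times the next library. Atp6v1c1, a stalk subunit, stood at 0.49 ± 0.16 (SE, edgeR adjusted p = 0.0344) and lost its call in 6 of the 12 fits without 1 library, WT-HFD 1 and WT-HFD 4 among them. Atp6v1h, the subunit that holds the free V1 sector inactive, was lower on HFD, at 143, 116 and 123 CPM (WT-NCD), 115, 81.6 and 83.6 CPM (WT-HFD), 109, 107 and 133 CPM (KO-NCD) and 127, 114 and 125 CPM (KO-HFD). WT-HFD 1 was close to WT-NCD 2, while WT-HFD 2 and 4 were below all others. The difference of -0.44 ± 0.15 (SE, edgeR adjusted p = 0.0384) became -0.62 without WT-HFD 1, and was not called in 5 of the 12 fits without 1 library, at -0.35 without WT-HFD 2 and -0.36 without WT-NCD 1.

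In the membrane sector, Atp6v0a1, a proton-path subunit, was at 197, 209 and 202 CPM (WT-NCD), 623, 251 and 297 CPM (WT-HFD), 162, 174 and 175 CPM (KO-NCD) and 256, 259.8 and 252 CPM (KO-HFD). WT-HFD 1 was 2.1 times the next library of its group, and WT-HFD 2 lay just below KO-HFD. Its difference for diet in WT was 0.95 ± 0.27 (SE, edgeR adjusted p = 0.0187), 0.44 without WT-HFD 1 and still called, and 0.92 and 0.94 but no longer called without WT-NCD 1 and WT-NCD 3. Atp6v0b, Atp6v0d1 and Atp6v0e, further parts of the V0 sector, were not called, at 0.03 ± 0.18, -0.12 ± 0.12 and 0.21 ± 0.17. Atp6v0b was lower in KO-HFD than in WT-HFD, at -0.64 ± 0.18 (SE, edgeR adjusted p = 0.0353), a call lost in 6 of the 12 fits without 1 library, KO-HFD 2 and WT-HFD 1 among them. Atp6v1d and Atp6v1e1 of the V1 sector were not called for diet either, at -0.12 ± 0.14 and -0.03 ± 0.17, and the sign of Atp6v0b and Atp6v1e1 turned in some fits without 1 library. The accessory subunit Atp6ap2, also known as the prorenin receptor, was at 82.4, 69.2 and 86.8 CPM (WT-NCD), 167, 129.7 and 151 CPM (WT-HFD), 85.1, 67.9 and 87.5 CPM (KO-NCD) and 83.8, 71.5 and 86.9 CPM (KO-HFD). WT-HFD was clear of all other libraries, at 0.91 ± 0.14 for diet (SE, edgeR adjusted p = 0.000841) and -0.88 ± 0.14 for genotype on HFD (edgeR adjusted p = 0.00447). Its partner Atp6ap1 was not called for diet, at 0.24 ± 0.11, but was lower in KO-HFD than in WT-HFD, at -0.74 ± 0.11 (SE, edgeR adjusted p = 0.00404).

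Of the 9 pump subunit genes tested outside the 43, the 2 called higher for diet in WT mice were Tcirg1 and Atp6v0d2, isoforms typical of macrophages and osteoclasts. Tcirg1, the a3 isoform of the proton-path subunit, was at 78.8, 74.4 and 69.5 CPM (WT-NCD), 312, 180.4 and 273 CPM (WT-HFD), 146, 70.7 and 110.1 CPM (KO-NCD) and 91.6, 94.5 and 104 CPM (KO-HFD). WT-HFD was above all others, with 1.78 ± 0.25 for diet (SE, edgeR adjusted p = 0.000525). Atp6v0d2, the isoform of Atp6v0d1 needed for osteoclast fusion, was at 3.76, 4.15 and 1.56 CPM (WT-NCD), 334, 38.3 and 52.4 CPM (WT-HFD), 2.79, 3.52 and 4.02 CPM (KO-NCD) and 4.66, 9 and 8.67 CPM (KO-HFD). WT-HFD 1 was far above WT-HFD 2 and 4, and the 9 others were far lower, with 5.49 ± 0.84 for diet (SE, edgeR adjusted p = 0.000789). Per kb, Atp6v0d2 was 1.46, 0.191 and 0.242 times Atp6v0d1 in WT-HFD 1, 2 and 4 and at most 0.0487 times elsewhere. Tcirg1 was 0.612 to 1.12 times Atp6v0a1 per kb in WT-HFD, 0.421 to 0.49 in WT-NCD, 0.498 to 1.1 in KO-NCD and 0.437 to 0.504 in KO-HFD. Atp6v0e2 and Atp6v1g1 fell by 0.83 and 0.47 on the log2 scale. Thus 2 of the 9 were called higher and 2 lower, near the 17.6% and 18.4% of all tested genes.

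Atp6v0c, the proteolipid that forms the rotating ring of the V0 sector, could not be read from its own row. Its row (chromosome 17, 24163865 to 24169678) held 210.2, 9.36 and 6.13 CPM in the WT-NCD libraries, 309, 238 and 303 in WT-HFD, 4.73, 3.67 and 156 in KO-NCD and 4.27, 3.82 and 178 in KO-HFD. The row of Atp6v0c-ps2, a transcribed pseudogene on chromosome 6 from 37805975 to 37807107, held 0.0345, 164 and 175 CPM in the WT-NCD libraries, 0.0409, 0.0556 and 0.093 in WT-HFD, 168, 134 and 0.0312 in KO-NCD and 164, 149 and 0.0359 in KO-HFD. In each library where either row was high the other was low, whatever the group. The row alone gave 1.91 ± 1.82 for diet in WT (SE, edgeR adjusted p = 0.449). Summed, an alternative chosen after seeing the data, the rows were at 188 ± 19.2 (SD, n = 3), 284 ± 39.3, 155 ± 17.3 and 166 ± 12.6 CPM over the groups in this order. The sum was higher on HFD in WT mice by 0.59 ± 0.13 on the log2 scale (SE, edgeR adjusted p = 0.00629) and lower in KO-HFD than in WT-HFD, at -0.77 ± 0.13 (edgeR adjusted p = 0.00617). How reads were divided between the rows is not given in the sources used here.

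**Figure D3:**
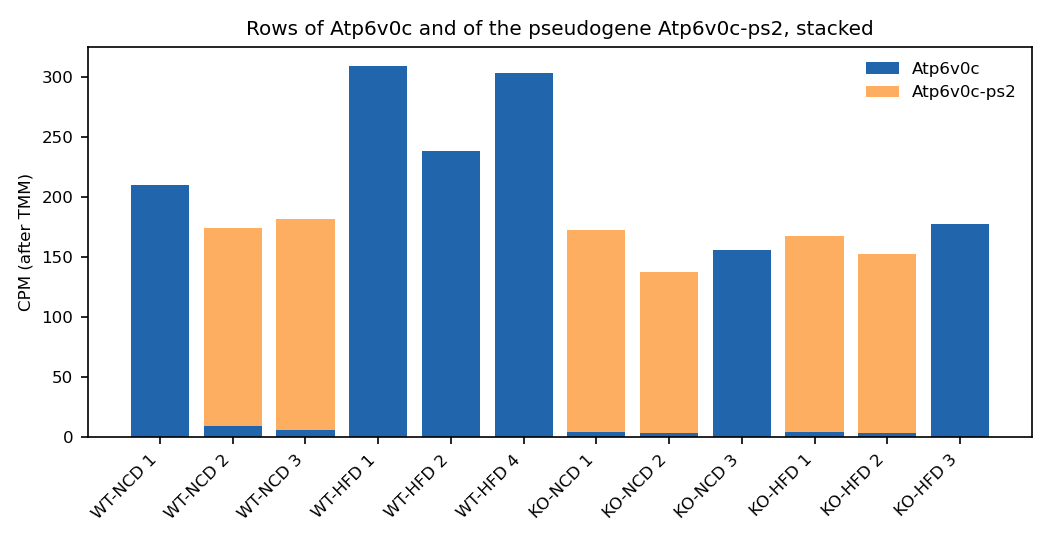
CPM after TMM scaling (y axis) of the Atp6v0c row and the Atp6v0c-ps2 row, stacked, in each of the 12 libraries (x axis). A single row carries nearly all of the sum in every library, Atp6v0c in WT-NCD 1, the WT-HFD libraries, KO-NCD 3 and KO-HFD 3 and Atp6v0c-ps2 in the others, while the sums vary far less than either row.

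On NCD, KO mice differed from WT mice in few of these genes. Mitf was higher and Ctsd, Atp6v0b, Atp6v1d and Atp6ap1 were lower in KO-NCD, 1 and 4 members against 5.27% and 7.91% of all tested genes. The median log2 difference was -0.08, beside 0.06 for all tested genes. Mitf had a difference of 0.49 ± 0.13 (SE, edgeR adjusted p = 0.0367) and Ctsd one of -0.91 ± 0.24 (edgeR adjusted p = 0.0348). Ctsd of WT-NCD and KO-NCD did not overlap, at 1759.8 to 2146 against 964 to 1084 CPM. Atp6v0b was at 170.4, 116 and 136 CPM in WT-NCD and 88.4, 79.1 and 96.9 CPM in KO-NCD, again without overlap, with -0.68 ± 0.18 (SE, edgeR adjusted p = 0.0326). Atp6v1d and Atp6ap1 followed with -0.48 ± 0.14 and -0.43 ± 0.11 (edgeR adjusted p = 0.0491 and 0.0349). Ctss and Lgmn, with 1.17 ± 0.43 and 0.96 ± 0.34, were not called (edgeR adjusted p = 0.0934 and 0.0823), but were without KO-NCD 2. Scaled by total counts, which moved the median of all tested genes to 0.32, 6 members were higher and 1 was lower. Each of the 5 calls was lost when WT-NCD 1, WT-NCD 3 or any KO-NCD library was left out, Ctsd for example at -0.85 with an adjusted p of 0.109 without WT-NCD 1. Calls over all tested genes in these fits numbered 499 to 1843, against 2154 with all libraries.

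The diet by genotype interaction tested whether the effect of HFD differed between KO and WT mice. A negative value means a smaller rise on HFD in KO mice. It was called negative for 18 of the 43 and positive for 0, against 8.57% and 9.12% of all tested genes, and at an unadjusted p under 0.05 for 25 and 2. The median of the 43 was -0.83 and that of all tested genes 0.01. Ctss had the largest value, -3.26 ± 0.61 (SE, edgeR adjusted p = 0.00714), followed by Lgmn at -2.73 ± 0.48, Lipa at -2.26 ± 0.54 and Gla at -2.03 ± 0.32. By class it was called for 6 of 9 cathepsins, 6 of 11 other hydrolases, Psap and Grn, Lamp2, Mitf, Atp6v1a and Atp6ap2, and for 0 of the 5 V0 subunits. Left out in turn, single libraries ended the call of Atp6v1a in 9 of 12 fits, of Gusb in 8, of Hexa in 7, of Grn in 3, of Psap in 2 and of Ctsh in 1, and ended none of the other 12. Ctsd was not called here, at -0.39 ± 0.34, its KO levels being lower on either diet. Without WT-NCD 1 and WT-NCD 2, which leaves a single WT-NCD library, the median of the 43 was -0.76.

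Markers of several cell types moved in the same comparisons as the hydrolases. The shares of all tested genes were 17.6% called higher and 18.4% lower on HFD in WT mice. They were 7.99% higher and 7.72% lower in KO-HFD than in WT-HFD. Of 17 macrophage markers, 14 were higher on HFD in WT mice and 8 lower in KO-HFD than in WT-HFD, and no marker was at 0 in any library. Adgre1, which encodes the macrophage antigen F4/80, was at 52.7, 63.0 and 42.0 CPM (WT-NCD), 493, 244 and 272 CPM (WT-HFD), 125, 69.9 and 94.1 CPM (KO-NCD) and 93.7, 60.0 and 98.2 CPM (KO-HFD). The summed markers were 1674 to 2026 CPM in the 3 WT-NCD libraries, 4419 to 6470.3 in WT-HFD, 1902 to 3143 in KO-NCD and 1648 to 3764 in KO-HFD, and the summed cathepsins 4922 to 5777, 10088 to 15882, 3834 to 5464 and 4286 to 6023 CPM. In both sums WT-HFD was above all others, while WT-NCD was below most KO-NCD libraries in the markers but not in the cathepsins. The 6 markers of lipid-associated macrophages, Trem2 among them, summed to 177 to 296, 1821 to 4469, 201 to 313 and 339 to 382 CPM in the same order, and all 6 were called higher for diet in WT. Of 9 adipocyte markers, 7 were lower on HFD in WT mice and 5 higher in KO-HFD than in WT-HFD. All 6 tested neutrophil markers were higher on HFD in WT mice and 5 were lower in KO-HFD than in WT-HFD, their sum being 7.38 to 12.2 CPM in WT-NCD against 24.4 to 499 CPM in WT-HFD. Of 7 fibroblast and progenitor markers 3 were higher on HFD in WT mice, and of 8 T and B cell markers 3 were higher in KO-HFD than in WT-HFD. The part of these markers in the results was not tested, and in whole tissue fewer cells of a type and less RNA per cell cannot be told apart.

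Relative to the summed macrophage markers, the classes did not move alike. Summed cathepsins were 2.71 to 3.1 times the markers in WT-NCD, 2.26 to 2.46 times in WT-HFD, 1.65 to 2.02 times in KO-NCD and 1.6 to 2.6 times in KO-HFD. Other hydrolases stood at 0.578 to 0.667, 0.548 to 0.589, 0.414 to 0.56 and 0.387 to 0.712 times, so that WT-HFD overlapped WT-NCD. Membrane proteins were 0.791 to 0.952 times in WT-NCD and 0.323 to 0.412 times in WT-HFD, and the 13 pump subunits, Atp6v0c by its own row, 0.851 to 1.03 and 0.452 to 0.498 times, without overlap. KO-HFD 3 combined a high marker sum of 3764 CPM with 6023 CPM of cathepsins, a ratio of 1.6, whereas KO-HFD 1 and 2 were at 2.6.

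**Figure D4:**
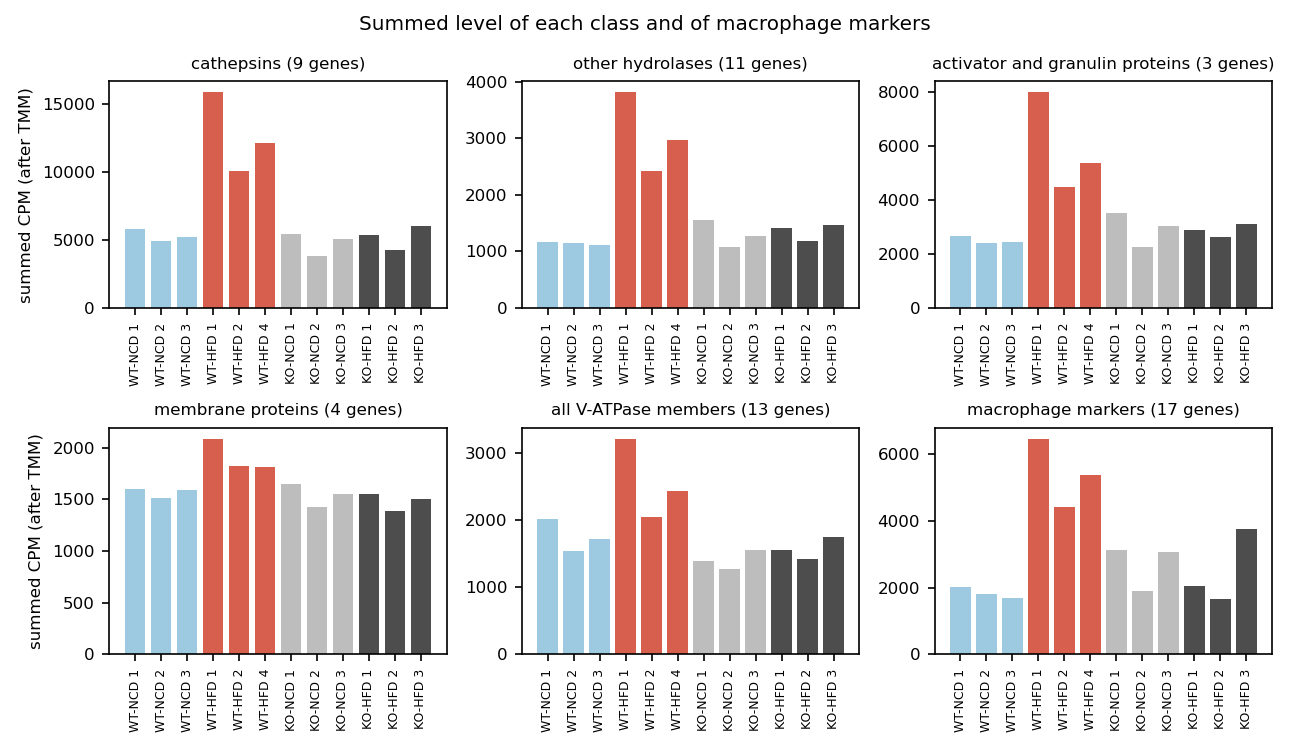
Summed CPM (y axis, 1 panel per gene group) of cathepsins, other hydrolases, activator and granulin proteins, membrane proteins, the 13 pump subunits and 17 macrophage markers in each of the 12 libraries (x axis, grouped by genotype and diet). The WT-HFD libraries are above all others in every panel, WT-HFD 1 the highest. The gap is narrowest for the pump subunits, at 2046 CPM in WT-HFD 2 against 2014 CPM in WT-NCD 1, with Atp6v0c counted by its own row.

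Within WT-HFD the members kept an order of libraries. WT-HFD 1 was the highest of its group for 34 of the 43, WT-HFD 4 for 8 and WT-HFD 2 for 1, and WT-HFD 2 was the lowest for 35. WT-HFD 1 exceeded the next library by more than 1.5 times in 10 members. The median SD on the log2 scale was 0.278 for the members in WT-HFD, against 0.133 in WT-NCD, 0.163 in KO-NCD and 0.163 in KO-HFD, and 0.23 for all tested genes in WT-HFD. WT-HFD 1 was also the highest and WT-HFD 2 the lowest in the summed macrophage markers and in Adgre1, which was 493, 244 and 272 CPM in WT-HFD 1, 2 and 4.

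Other lysosomal genes were read from lists drawn up by function. Over all tested genes, 17.6% were called higher and 18.4% lower for diet in WT mice, and 7.72% lower in KO-HFD than in WT-HFD. Of 30 further hydrolases, 14 were higher and 1 lower on HFD in WT mice, with a median of 0.46, and 7 were lower in KO-HFD than in WT-HFD. Manba, β-mannosidase, was at 21.1 to 23.1 CPM with NCD and 44.0 to 48.9 CPM with HFD (1.04 ± 0.09), and in KO mice at 33.2 to 33.9 CPM on NCD and 33.8 to 40.6 CPM on HFD, between the WT groups. Dnase2a, the DNase of engulfed DNA, had 1.73 ± 0.27, Idua, which cuts dermatan and heparan sulfate, 0.75 ± 0.12, and the acid phosphatase Acp2 0.66 ± 0.10. Of 18 further membrane and transport proteins, 11 were higher and 3 lower, and 11 were lower in KO-HFD than in WT-HFD. They included Slc11a1, the metal transporter of phagosomes, at 2.57 ± 0.29, Laptm5, a lysosomal protein of blood cells, at 2.0 ± 0.29, the calcium channel Tpcn2 at 1.70 ± 0.23 and the cholesterol exporter Npc1 at 1.25 ± 0.16. Of 5 cathepsin inhibitors tested, 2 were higher, Cstb at 1.42 ± 0.23 and Serpinb6a at 1.28 ± 0.23.

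Genes that deliver enzymes to the lysosome or control the MiT/TFE factors were mixed. Of 8 sorting genes, 3 were higher and 2 lower on HFD in WT mice, against 17.6% and 18.4% of all tested genes. The mannose 6-phosphate receptors Igf2r and M6pr had 1.17 ± 0.27 and 0.50 ± 0.13, and Nagpa, which uncovers the mannose 6-phosphate tag, 0.92 ± 0.16. Sort1, a receptor that carries several lysosomal proteins independently of that tag and is abundant in adipocytes, fell from a range of 486 to 648 CPM with NCD to 220.5 to 367 CPM with HFD, at -0.97 ± 0.22. Of 15 genes in control of MiT/TFE factors, 2 were higher and 2 lower, in each direction a smaller share than the 17.6% and 18.4% of all tested genes. Fnip2, a partner of folliculin, was at 27.3, 34.8 and 30.9 CPM (WT-NCD), 127, 72.6 and 108 CPM (WT-HFD), 40.5, 34.3 and 31.9 CPM (KO-NCD) and 27.9, 32.0 and 28.2 CPM (KO-HFD), with 1.72 ± 0.19 for diet in WT and -1.80 ± 0.19 for KO-HFD against WT-HFD. Fnip1 had 0.36 ± 0.12, and the Ragulator subunits Lamtor1 and Lamtor4 had -0.67 ± 0.15 and -0.66 ± 0.20. Of 15 autophagy genes, 2 were higher, Uvrag and Map1lc3b, and 2 lower, Atg16l1 and Wipi2, with differences between -0.32 and 0.55, again below the share of all tested genes. In KO mice 0 genes of these lists were called between diets, beside 5 of all 16352 tested. All values of this and the preceding paragraph are log2 differences ± SE of the same edgeR fit.

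The counting strand is not given, and 8 members overlap another gene of the table in position, so that reads of both may be mixed. These are Ctsa (Neurl2 and Pltp), Ctsb (Fdft1), Ctsz (Nelfcd), Glb1 (Tmppe), Hexa (Tmem202), Asah1 (Frg1), Atp6v0a1 (Mir6928) and Atp6v1b2 (Slc18a1).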

How the data were processed

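RNA from gWAT of 12 libraries, 3 in each of 4 groups, was analysed from the deposited table of raw counts per gene. Per the labels, the authors converted base calls with bcl2fastq 2.20.0, trimmed reads with Trimmomatic, mapped them to mm10 with HISAT2 2.1.0 and counted genes with StringTie 1.3.4d. The counts are whole numbers and the counting strand is not given in the sources used here. Of 19792 gene IDs, 19745 matched a RefSeq symbol (GRCm38.p6). Per-sample columns left unused numbered 0.

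Genes passing filterByExpr (minimum count 10, minimum total 15) numbered 16352 and hold 99.989% of the counts, and all 43 members passed, the lowest member count being 223. Counts were scaled by TMM and fitted in edgeR 4.0.16 (R 4.3.3) with 4 group means, leaving 8 degrees of freedom. The biological coefficient of variation was 0.339 (dispersion 0.115), and this spread, not depth, limited the precision. The quasi-likelihood test was adjusted by the Benjamini-Hochberg method over all 16352 genes, and genes were called at an adjusted p under 0.05. Standard errors were derived from the test statistic. CPM per kb divides by the union exon length (GENCODE M21). The fit was tested on simulated data. Exact tests between 3 and 3 libraries were not used.

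The members and lists were chosen with earlier results of these data known. All 43 members are named, with values per library for up to 4 per class with the smallest p for diet in WT mice and for those that moved against their class. Of each further list, up to 4 genes with the smallest p are named, and of marker lists the first gene. Of 230 list genes, 4 were not used here because no row matched.

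In KO mice, deviations from the group means correlated between libraries of the same number (0.468, 0.699 and 0.195), and no other pair of groups had 3 such positive values. Libraries of other numbers reached 0.182 (KO-NCD 1 and KO-HFD 3) and 0.138 (KO-NCD 3 and KO-HFD 1), and the rest were negative. The 0.699 joins KO-NCD 2 and KO-HFD 2, the libraries richest in liver markers. These values do not establish a pairing, and the labels state none. With the replicate block, the diet comparison in KO mice called 6 genes when all libraries were fitted and 0 when only KO libraries were, against 5 without it, and 0 members in each.

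Alternatives were DESeq2 size factors, total counts, the DESeq2 Wald test (1.42.0), no filter on low counts, a fit of only the groups compared, the replicate block, leaving out each library in turn, leaving out the libraries rich in seminal vesicle or liver counts, leaving out seminal vesicle genes and, chosen after seeing the data, summing the Atp6v0c rows.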

Additional observations from a re-analysis of the deposited data

Results flagged for a closer look

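The effect of HFD differed between KO and WT mice, by the edgeR test of the diet by genotype interaction, for 18 members, and each difference was negative, so that the change on HFD was smaller or more negative in KO mice. On the log2 scale the cathepsins among them were Ctss at -3.26, Ctsh at -1.56, Ctsz at -1.39, Ctsl at -1.32, Ctsa at -1.29 and Ctsb at -1.21. The other hydrolases were Lgmn at -2.73, Lipa at -2.26, Gla at -2.03, Gusb at -1.36, Asah1 at -1.25 and Hexa at -1.10. Grn stood at -1.36, Psap at -1.33 and Lamp2 at -0.65. Mitf, the transcription factor of the list, was at -1.56, and the pump subunits Atp6v1a and Atp6ap2 were at -0.96 and -0.90.

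All 18 rest on the WT-NCD libraries as a baseline, of which WT-NCD 1 and WT-NCD 2 hold most of the seminal vesicle counts. Without both, a single WT-NCD library was left, so the calls of that fit are not compared. The median interaction of all members was -0.76 on the log2 scale in that fit, against -0.83 with all libraries. The 17 macrophage markers moved with these genes, and their part was not tested. In the same interaction 10 of them were called negative, against 8.57% of all tested genes.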

How the results depend on the processing

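Counts of called members held within 1.5 times under DESeq2 size factors, with the seminal vesicle genes left out and with the Atp6v0c rows summed. Total-count scaling moved the median log2 difference of all tested genes to 0.26 for diet in WT mice, 0.32 for genotype on NCD and -0.26 for the interaction, and members lower for diet in WT then numbered 0, members higher and lower in KO-NCD 6 and 1, and interaction calls 29. No filter left 1 member lower for diet in WT. A fit of only the groups compared left 0 lower for diet and 2 lower in KO-NCD, and the DESeq2 Wald test gave 3 higher in KO-NCD. The replicate block, by library numbers that are not shown to be pairs, gave 0 lower for diet in WT, 18 lower in KO-HFD against WT-HFD and 0 higher in KO-NCD. Number 4 occurs in WT-HFD alone, so in this block WT-HFD 4 adds nothing to the differences between groups. Without WT-NCD 1 and WT-NCD 2, the counts were 13 higher and 0 lower for diet in WT, 0 higher and 0 lower in KO-NCD, and 2 for the interaction. Without KO-NCD 2 and KO-HFD 2 they were 0 lower for diet in WT, 16 lower in KO-HFD against WT-HFD, and 3 higher and 0 lower in KO-NCD. The causes were not tested.

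Without 1 library at a time, members higher for diet in WT numbered 23 to 29 and lower 0 to 3, higher for diet in KO 0 to 1, higher in KO-HFD against WT-HFD 0 to 1 and lower 15 to 28, higher in KO-NCD 0 to 3 and lower 0 to 6, and interaction calls 0 to 2 positive and 12 to 20 negative. Leaving out KO-HFD 2 gave the 15, in a fit where calls over all tested genes fell from 2570 to 937. Leaving out WT-HFD 1 gave the single Atp6v0a1 call in KO mice, Atp6v1h higher in KO-HFD and, with Atp6v1e1, the positive interaction calls.

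No called member changed direction. Uncalled diet differences in WT that turned were Mcoln1 at 0.012, Atp6v0d1 at 0.14, Atp6v1d at 0.15 and Atp6v1e1 at 0.22 under total counts and Atp6v1e1 at 0.059 with the replicate block. Without 1 library at a time, Tfeb ran from -0.020 to 0.26, Atp6v0b from -0.11 to 0.18 and Atp6v1e1 from -0.27 to 0.093. For KO-HFD against WT-HFD, Atp6v1e1 ran from -0.14 to 0.22, and it was at 0.011 without KO-NCD 2 and KO-HFD 2. With 3 libraries per group, a missed call does not show that levels are equal.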
